A study of Mus musculus with 12 samples.

Results

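The C1q-like genes C1ql1, C1ql2 and C1ql3 and the cerebellin genes Cbln1, Cbln2, Cbln3 and Cbln4 encode secreted proteins that neurons place in synaptic clefts. They were taken by symbol from a table of read counts of mouse brain RNA, in which 7 of 43629 gene IDs carried these symbols, and each was read in all 12 libraries. The libraries came from 4 groups of 3, females and males injected as newborns into the cerebral ventricles with PBS, or with a recombinant adeno-associated virus (rAAV, a vector that carries a gene into cells) encoding a collagen domain construct. All mice were 3 months old when 1 side of the brain was frozen, and RNA was purified from the forebrain. Per the series title the collagen domain is that of C1qTNF3, another secreted protein with a C1q-type globular domain. The labels give no strain, promoter or construct sequence, and they list no arm with an empty or reporter vector. Vector and construct therefore cannot be told apart. The labels number the samples without saying that each is a separate mouse, so a p-value here speaks of spread among libraries, which may be technical.

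As background, each of these proteins ends in a globular C1q domain, and the C1q-like proteins also carry a short collagen-like stretch. Cerebellins such as Cbln1 bridge the cleft by binding neurexins on the axon and delta-type glutamate receptors, a family that includes Grid1, on the receiving cell. Cbln1 from cerebellar granule cells holds their synapses onto Purkinje cells in this way, and Cbln3 is a granule cell cerebellin that is secreted together with Cbln1. Cbln2 and Cbln4 are made by forebrain neurons among others, and Cbln4 also binds Dcc and Neo1. C1q-like proteins bind the adhesion receptor Adgrb3. C1ql1 is the signal of climbing fibres, which run from the inferior olive of the brainstem to Purkinje cells, while C1ql2 and C1ql3 are made by hippocampal mossy fibre neurons and gather kainate receptors (Grik2, Grik4).

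Library totals ranged from 39272127 to 52323985 reads, and the members held between 7 reads (Cbln3) and 10823 reads (also Cbln3). Labels were contradicted by the reads in several libraries. C1qtnf3 lay between 1071 and 4966 reads in 6 libraries and between 8 and 28 in the other 6, and by this 4 libraries went against their treatment label (PBS female 2, PBS male 1, collagen domain female 1 and collagen domain female 3). By Xist and Ddx3y, 4 libraries went against their sex label, and 5 went against either, the fifth being collagen domain male 3. The tests of treatment and sex by label are therefore also given without these libraries. The tissue label of forebrain did not hold for all libraries either. A list of 11 hindbrain markers (cerebellar granule and Purkinje cell genes, Hox genes and Slc6a5, the glycine transporter of hindbrain neurons) summed to between 276.2 and 582.7 CPM (reads of a gene relative to the library total after TMM scaling) in PBS female 2, PBS female 3, PBS male 3, collagen domain female 2 and collagen domain male 2, with 11 of 11 markers read in each. It summed to between 12.7 and 30.7 CPM in the other 7 libraries, of which 6 had between 2 and 4 of the markers at 0 reads. PBS male 1 was the exception among these 7, with 11 of 11 markers read. Its Slc6a5 level of 13.7 CPM compared with 0.0737 to 0.44 CPM in the other 6, while Gabra6, a granule cell receptor subunit, was at 0.42 CPM, inside their range of 0 to 0.94 CPM.

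The members are related in sequence, so the counting could in principle pass reads from one to another, and the counting tool is not stated. In GENCODE M21 transcripts (GRCm38), the coding sequences of the 21 pairs of members were 45.4 to 74.1% identical over aligned bases. The longest identical run in any pair was 38 bases, and 0 pairs shared a run as long as the 75-base reads. The pair with that longest run is shown over 75 coding bases, 487 to 561 of C1ql2 and 391 to 465 of C1ql3 counted from the start codon, with the 12 differing bases in capitals:
C1ql2: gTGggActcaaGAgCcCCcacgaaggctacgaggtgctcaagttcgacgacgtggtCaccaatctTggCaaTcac
C1ql3: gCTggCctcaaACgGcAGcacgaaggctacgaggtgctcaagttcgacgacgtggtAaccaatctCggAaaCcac

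Cbln1 and Cbln3, the members that varied together below, shared at most 21 bases in a row. Over the 75 coding bases around that run, 222 to 296 of Cbln1 and 234 to 308 of Cbln3, 37 bases differ, again in capitals, and over their whole aligned coding sequences the pair was 63.2% identical:
Cbln1: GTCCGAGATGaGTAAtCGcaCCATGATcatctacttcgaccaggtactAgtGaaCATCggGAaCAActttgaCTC
Cbln3: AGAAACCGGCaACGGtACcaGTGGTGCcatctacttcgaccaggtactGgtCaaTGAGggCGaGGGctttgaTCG

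Cbln3, the granule cell cerebellin, varied most between libraries. In PBS females it stood at 1.48, 192 and 96.3 CPM in libraries 1, 2 and 3, and in PBS males at 1.46, 0.612 and 184 CPM. In collagen domain females it stood at 0.162, 196 and 0.396 CPM, and in collagen domain males at 0.54, 252 and 0.377 CPM. Each labelled group thus held at least 1 library at 96.3 CPM or above beside at least 1 at 1.48 CPM or below, and the treatments overlapped. The 5 high libraries were those with the hindbrain markers, and the lowest of them lay 64.9-fold above the highest of the other 7. PBS male 1, whose Slc6a5 but not Gabra6 level stood out among the other 7, was among the low libraries. At the low end Cbln3 rested on 7 to 71 reads per library.

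Cbln1, its partner in secretion, split the libraries in the same way but kept a level in all of them. PBS females stood at 18.7, 104 and 64.3 CPM in libraries 1, 2 and 3, and PBS males at 18.8, 19.4 and 97.2 CPM. Collagen domain females stood at 17.8, 107 and 17.5 CPM, and collagen domain males at 17.9, 127 and 21.5 CPM. The 7 libraries low in hindbrain markers held Cbln1 within a narrow band of 17.5 to 21.5 CPM, while the 5 with those markers held 64.3 to 127 CPM, at least 2.99-fold above every other library. PBS male 1 lay inside the narrow band. In bulk tissue, fewer cells of a type and less RNA per cell cannot be told apart. Gm2694, a noncoding gene annotated on the opposite strand across Cbln1, stood at 2.38 to 3.32 CPM in those 7 libraries and at 5.66 to 14.1 CPM in the 5. The library kit does not mark strand, so reads of this pair cannot be told apart where they overlap.

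**Figure D1:**
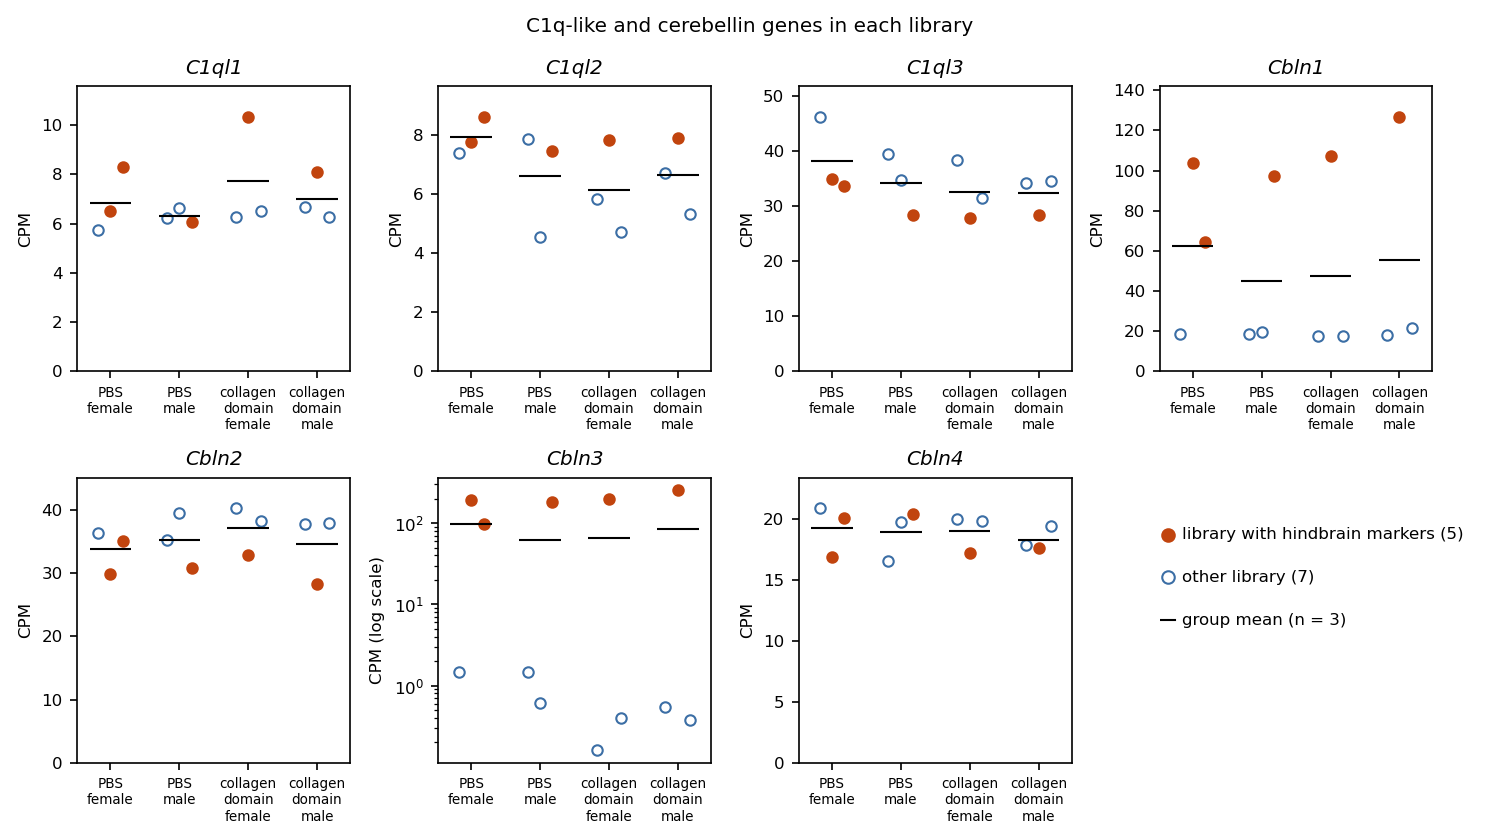
Level of each gene in CPM (y axis, a log scale for Cbln3 only) in every library by labelled group (x axis, 3 libraries each, short line the mean), with the 5 libraries rich in hindbrain markers filled. Cbln3 spans 0.162 to 252 CPM and Cbln1 17.5 to 127 CPM, each with the filled libraries apart from the others, while the other 5 genes vary by less than a factor of 2.

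Several genes for binding partners did not separate these libraries. Grid1, a delta-type receptor bound by cerebellins, overlapped between the 5 libraries with hindbrain markers and the other 7, at 42.5 to 57.9 against 48.7 to 59.6 CPM. The neurexin genes Nrxn2 and Nrxn3 overlapped too and varied by factors of 1.39 and 1.35 between the lowest and the highest of the 12 libraries. Adgrb3, the receptor of C1q-like proteins, had a coefficient of variation of 3.80%, at 95.3 to 111 CPM over all 12.

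Of the 7 members, 2 lay wholly above in the 5 libraries with hindbrain markers (Cbln1 and Cbln3), against 5.06% of the 19145 genes tested, and 1 lay wholly below (Cbln2), against 2.79% of genes. Among 12 binding partners and relatives, C1ql4 lay wholly above and Grik2 wholly below, the latter at 55.8 to 60.5 against 61.5 to 69.0 CPM. These sets of libraries were formed from marker reads and are not groups of the study, so the difference was not tested.

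**Figure D2:**
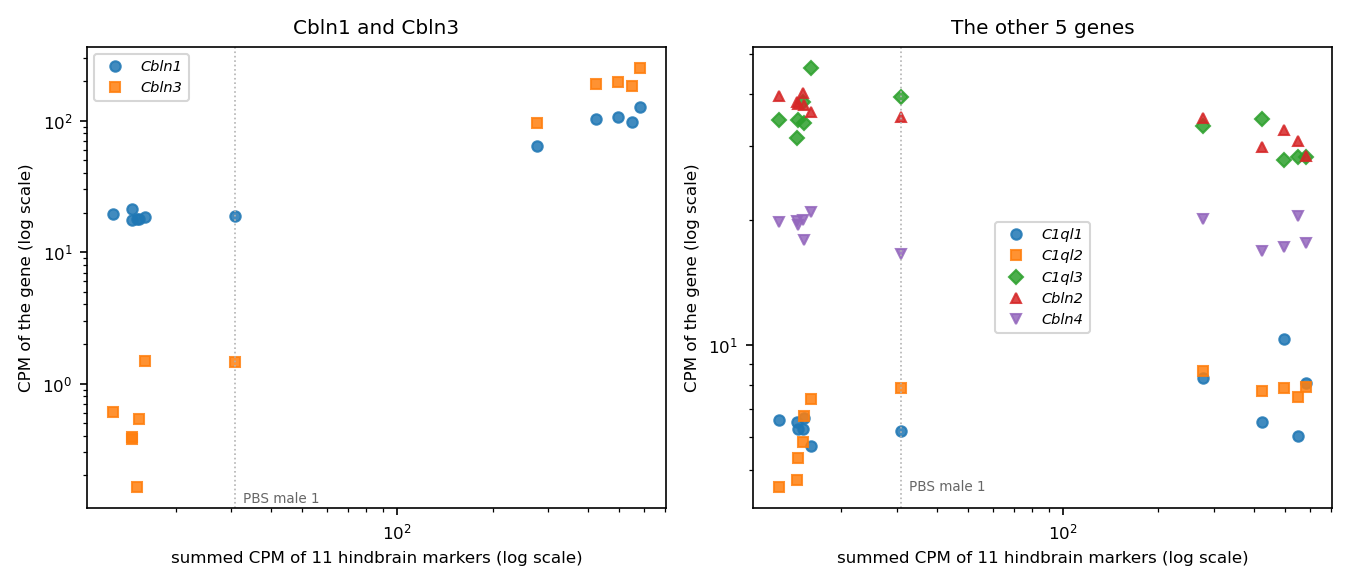
CPM of each gene (y axis, log scale) against the summed CPM of the 11 hindbrain markers (x axis, log scale), 1 point per library and gene. Cbln1 and Cbln3 (left) are high in the 5 libraries at 276.2 CPM of markers or more, and PBS male 1, at 30.7 CPM of markers on the dotted line, lies with the low libraries. Among the other 5 genes (right), Cbln2 is lower in those 5 libraries, and the rest overlap.

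C1ql1, the climbing fibre signal, stood between 5.72 and 10.3 CPM, with a median of 6.52. PBS females held 5.72, 6.52 and 8.30 CPM in libraries 1, 2 and 3 and PBS males 6.21, 6.62 and 6.04 CPM. Collagen domain females held 6.28, 10.3 and 6.52 CPM and collagen domain males 6.68, 8.08 and 6.27 CPM. The highest 3 libraries, collagen domain female 2, PBS female 3 and collagen domain male 2, were among the 5 with hindbrain markers, but the other 2 of these 5, at 6.52 and 6.04 CPM, lay within the range of the remaining 7. Markers of oligodendrocyte precursors, glia that also make C1ql1, had all 6 members read in every library, with summed levels of 111 to 148 CPM in the 5 and 121 to 137 CPM in the 7.

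C1ql2, a mossy fibre gene, ranged from 4.54 to 8.64 CPM. PBS females held 7.41, 7.77 and 8.64 CPM and PBS males 7.89, 4.54 and 7.48 CPM in libraries 1, 2 and 3. Collagen domain females held 5.84, 7.86 and 4.73 CPM and collagen domain males 6.73, 7.92 and 5.34 CPM. All 5 libraries with hindbrain markers lay at 7.48 CPM or above, and so did PBS male 1, while PBS female 1 lay just under them and PBS male 2, collagen domain female 3, collagen domain male 3 and collagen domain female 1 lay lowest.

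C1ql3, the most abundant C1q-like gene, went the other way between those libraries without separating them. PBS females held 46.3, 34.9 and 33.6 CPM and PBS males 39.5, 34.7 and 28.4 CPM. Collagen domain females held 38.3, 27.8 and 31.5 CPM and collagen domain males 34.1, 28.3 and 34.7 CPM. The lowest 3 libraries, at 27.8 to 28.4 CPM, were all among the 5 with hindbrain markers, and PBS female 1 was highest. Gm37824 and Gm37811, annotated on the strand opposite to C1ql3, stood at no more than 2.41 and 0.636 CPM in any library.

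Cbln2, a cerebellin of forebrain neurons, stood at 36.4, 29.8 and 35.2 CPM in PBS females and at 35.2, 39.5 and 30.8 CPM in PBS males. Collagen domain females held 40.3, 32.9 and 38.3 CPM and collagen domain males 37.7, 28.4 and 37.9 CPM. The 5 libraries with hindbrain markers lay at 28.4 to 35.15 CPM and the other 7 at 35.21 to 40.3 CPM, so the edges of the 2 ranges almost touched. Cbln4, which binds Dcc and neogenin besides neurexins, was the steadiest member, with a coefficient of variation of 8.15%, against 11.1% for Cbln2 and 15.5 to 20.3% for the C1q-like genes. It stood at 20.9, 16.8 and 20.1 CPM in PBS females, 16.5, 19.7 and 20.4 CPM in PBS males, 20.0, 17.2 and 19.8 CPM in collagen domain females, and 17.8, 17.6 and 19.4 CPM in collagen domain males. PBS male 1 and PBS female 2 were lowest for Cbln4 and PBS female 1 highest, within a factor of 1.26.

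Levels of different genes were compared per kilobase of exon (GENCODE M21). Over all 12 libraries the median was 13.6 CPM per kilobase for C1ql3 and 12.4 for Cbln2, whose ranges of 10.96 to 18.3 and 9.81 to 13.9 overlapped. Cbln1 and Cbln4 followed at a median of 6.74 each, then C1ql1 at 4.43 and C1ql2 at 3.72, whose ranges (3.88 to 7.02 and 2.27 to 4.32) also overlapped, and Cbln3 was last at 0.302. In the 5 libraries with hindbrain markers Cbln3 and Cbln1 instead ranked at the top, at medians of 39.4 and 34.2 CPM per kilobase. The Cbln3 value uses an exon length of 4866 bases, that of its longest transcript, and would be higher on its other annotated transcript of 1438 bases.

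By label, 0 of the 7 members passed for treatment in both sexes with edgeR, DESeq2 or limma-voom, against 0% of 19145 genes with edgeR, and 0 of 7 had an unadjusted p under 0.05, against 1.85% of genes. For 0 of 7 members did the 6 PBS libraries lie wholly apart from the 6 collagen domain libraries, against 0.0679% of genes. C1ql1 averaged 6.57 ± 0.91 CPM with PBS and 7.36 ± 1.61 CPM with the collagen domain (SD, n = 6 libraries each), a log2 fold change of 0.16 (SE 0.135, edgeR adjusted p = 0.9999, as for each member). C1ql2 stood at 7.29 ± 1.42 and 6.40 ± 1.33 CPM, a log2 fold change of -0.18 (SE 0.166), and C1ql3 at 36.2 ± 6.08 and 32.4 ± 4.05 CPM, a log2 fold change of -0.16 (SE 0.113). These differences were smaller than the spread between libraries of one treatment. The median log2 fold change was -0.04 over the 7 members, with 2 of 7 above 0, and 0.00022 over all genes tested.

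The cerebellins differed by less on average, with much larger errors for Cbln1 and Cbln3. Cbln2 stood at 34.5 ± 3.61 CPM with PBS and 35.9 ± 4.43 CPM with the collagen domain, a log2 fold change of 0.06 (SE 0.0945), and Cbln4 at 19.1 ± 1.89 and 18.6 ± 1.23 CPM, a log2 fold change of -0.03 (SE 0.0752). Cbln1 stood at 53.7 ± 40.3 and 51.5 ± 51.3 CPM, a log2 fold change of -0.04 (SE 0.744). Cbln3 stood at 79.3 ± 91.9 and 75.0 ± 117 CPM, a log2 fold change of -0.06 (SE 1.93). Among the 5 libraries with hindbrain markers 3 were labelled PBS and 2 collagen domain. With the mean log2 CPM of the 11 hindbrain markers as a covariate the standard error of Cbln3 was 0.345 around a log2 fold change of -0.14, and that of Cbln1 to 0.157 around 0.27. C1ql3 then stood at -0.23 (SE 0.0743, unadjusted p = 0.0103, edgeR adjusted p = 0.779) and C1ql1 at 0.22 (SE 0.102, adjusted p = 0.779), and 0 of 19145 genes passed in that fit, with 953 at an unadjusted p under 0.05. Adjusted p for C1ql3 ran from 0.694 to 1 over all its alternatives, and for C1ql1 from 0.681 to 1.

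Without the 4 libraries that went against their treatment label, 0 of 7 members passed in the remaining 8 libraries, with log2 fold changes of 0.30 for C1ql1, 0.09 for C1ql2, -0.16 for C1ql3, 0.46 for Cbln1, -0.06 for Cbln2, 0.67 for Cbln3 and -0.17 for Cbln4. Of all 19728 genes tested in that fit 0.0101% passed and 3.35% had an unadjusted p under 0.05. Without the 5 libraries against either label, 0 of 7 passed in the remaining 7 libraries, against 0.0102% of 19661 genes. Cbln4 was the 1 member with an unadjusted p under 0.05 there, against 5.79% of genes, at -0.23 (SE 0.0851, unadjusted p = 0.0316, edgeR adjusted p = 0.681), and C1ql1 stood at 0.34 (SE 0.166). C1ql2, Cbln1, Cbln2 and Cbln3 had the opposite sign to that in all 12 libraries in both of these fits, which share 7 libraries. Each of these values was smaller in size than its SE in both fits. Without the 4 the SE were 0.192, 0.841, 0.125 and 2.21 in that order, so the sign is not established. Leaving out 1 library also turned the sign of Cbln1 and Cbln3. Without PBS male 3 they stood at 0.42 and 1.42, and without collagen domain male 2 at -0.73 and -2.32.

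**Figure D3:**
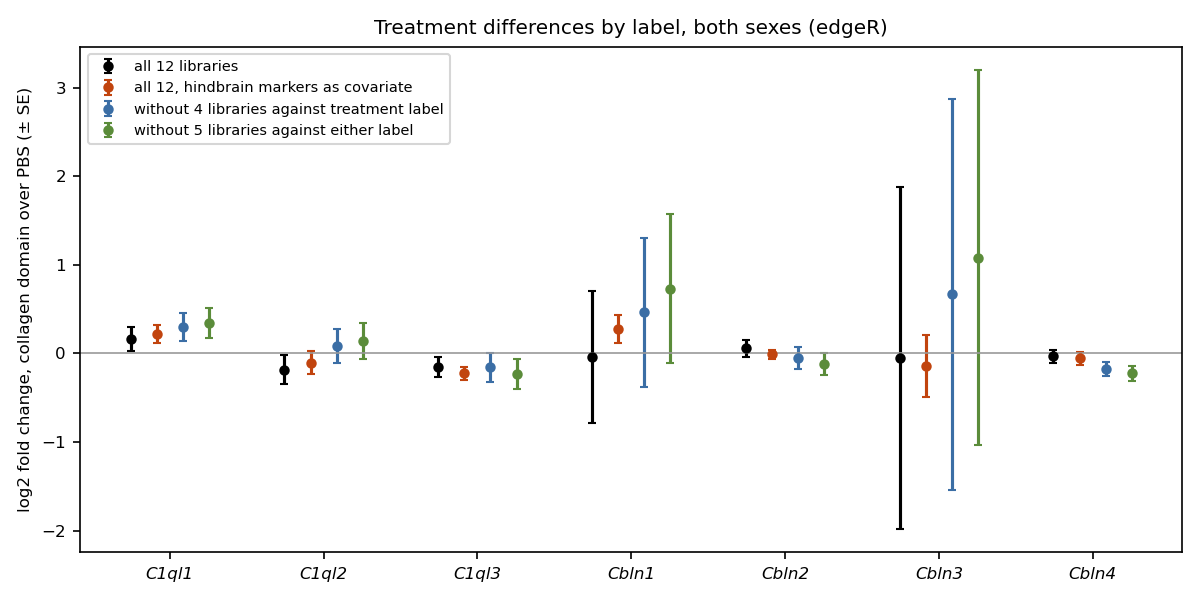
Log2 fold change of each gene for libraries labelled collagen domain over PBS in both sexes (y axis, points with SE, edgeR) in all 12 libraries, with hindbrain markers as a covariate, and without the 4 or 5 libraries that went against their labels. The errors of Cbln1 and Cbln3, 0.744 and 1.93 in all 12 libraries, shrink to 0.157 and 0.345 with the covariate.

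Within the sexes, treatment called 0 of 7 members among females and 0 of 7 among males (edgeR, against 0% of genes in each, and 0 of 7 at an unadjusted p under 0.05 in each, against 1.46 and 1.7% of genes; DESeq2 and limma-voom called 0 of 7). C1ql2 had the smallest p of the members in females, at a log2 fold change of -0.37 (SE 0.232), from 7.94 ± 0.633 CPM with PBS to 6.14 ± 1.59 CPM with the collagen domain (SD, n = 3 libraries each). In males it stood at 0.0058 (SE 0.233), from 6.64 ± 1.83 to 6.67 ± 1.29 CPM. The interaction of sex and treatment, which tests whether the difference itself differs, stood at 0.38 for C1ql2 (SE 0.329, edgeR adjusted p = 1) and called 0 of 7 members, against 0% of genes, with 0 of 7 at an unadjusted p under 0.05, against 1.37% of genes. Males against females likewise gave 0 of 7, against 0% of genes, with 0 of 7 at an unadjusted p under 0.05, against 1.97% of genes, and member log2 differences between -0.14 (Cbln3) and -0.02 (Cbln2). DESeq2 and limma-voom called 0 of 7 members in both. Without the 4 or the 5 libraries against their labels, the collagen domain female arm is 1 library (female 2, which is rich in hindbrain markers), assumed to vary like the other groups, so those fits say little about females or the interaction. C1ql2 in females then stood at -0.035 (without the 4, SE 0.335) and -0.043 (without the 5, SE 0.33), in males at 0.155 (SE 0.254) and 0.26 (SE 0.272), and its interaction at 0.19 (SE 0.421) and 0.30 (SE 0.429). Between the sexes, the members ranged from -0.34 (C1ql2) to 0.02 (Cbln4) without the 4 and from -0.28 (C1ql2) to 0.28 (Cbln3) without the 5. The fit without the 4 still counts collagen domain male 3 as male, against its Xist and Ddx3y reads. With an arm of 1 library, these fits are given here as log2 fold changes, with SE for C1ql2 within each sex and for its interaction, and without SE between the sexes.

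By label over all 12 libraries, the order of the 4 groups for Cbln1 was PBS females (62.2 ± 42.6 CPM), collagen domain males (55.4 ± 62.0), collagen domain females (47.6 ± 51.8) and PBS males (45.2 ± 45.1; SD, n = 3 libraries each), and no neighbours in it differed beyond their spread. For Cbln3 the order was the same, at 96.5 ± 95.1, 84.4 ± 145, 65.5 ± 113 and 62.0 ± 106 CPM. PBS females held 2 of the libraries with hindbrain markers and the other groups 1 each, whose part in this order was not tested.

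Among these 12 partners and relatives, 0 passed for treatment in both sexes (edgeR, DESeq2 and limma-voom), with 8 of 12 log2 fold changes above 0, a median of 0.04, and 1 at an unadjusted p under 0.05. Over all genes tested 0% passed, 50.1% of log2 fold changes were above 0 and 1.85% had such a p. Without the 4 or the 5 libraries against their labels, 0 of 12 passed, 0 of 12 had an unadjusted p under 0.05 and 9 of 12 were above 0, with medians of 0.16 and 0.15. The gene at p under 0.05 in all 12 libraries was Adgrb1, a relative of the C1q-like receptor, at 0.22 (SE 0.0951, edgeR adjusted p = 0.9999). The neurexin gene Nrxn3 stood at -0.13 (SE 0.0659), and Nrxn2 at 0.08 (SE 0.089). The delta receptor gene Grid1 stood at 0.04 (SE 0.0765), and the receptors Dcc and Neo1 at 0.10 (SE 0.128) and 0.10 (SE 0.106). Kainate receptor genes stood at -0.04 (Grik2, SE 0.0586) and 0.04 (Grik4, SE 0.0928). C1ql4, the remaining C1q-like gene, had 2 to 38 reads per library, and stood at 0.437 to 0.717 CPM in the 5 libraries with hindbrain markers and 0.0471 to 0.376 CPM in the other 7.

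**Figure D4:**
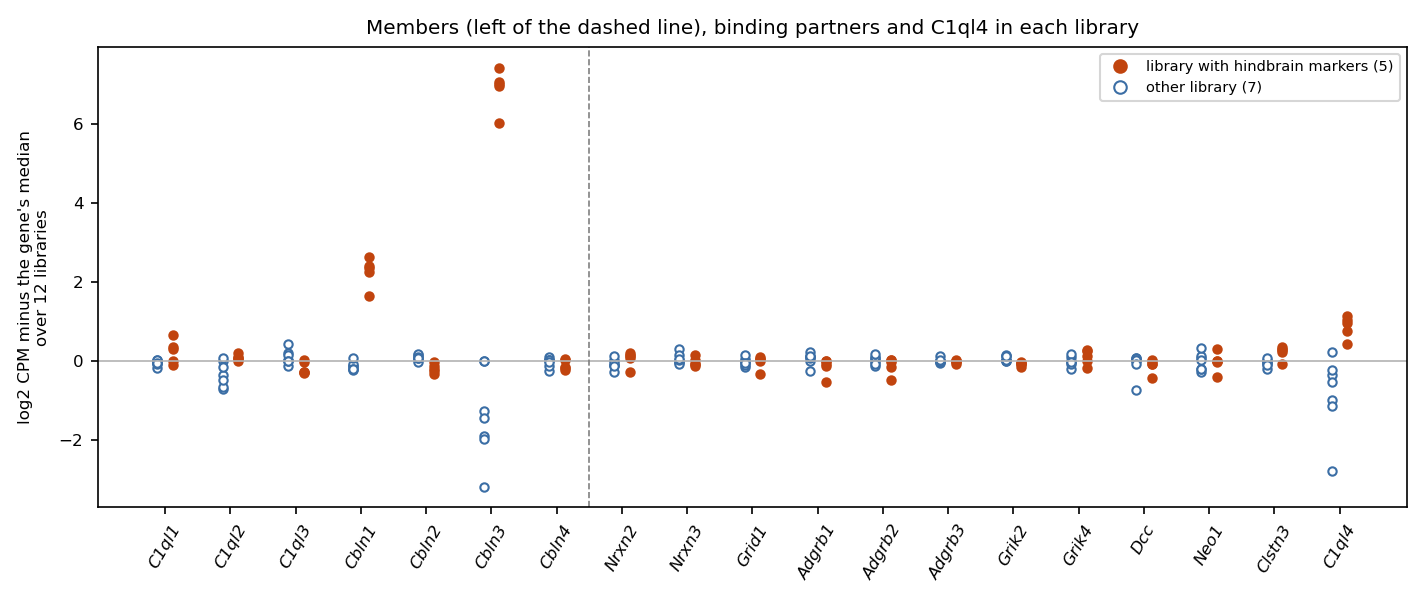
Log2 CPM of each gene in every library minus that gene's median over the 12 libraries (y axis), for the 7 genes and, right of the dashed line, 12 binding partners and relatives (x axis), with the 5 libraries rich in hindbrain markers filled. Cbln3, Cbln1 and C1ql4 have all filled points above all open ones, while Nrxn2, Nrxn3 and Adgrb3 stay close to 0.

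Whether members varied with other brain regions was asked through mean log2 CPM scores of dentate gyrus, thalamus, cortex, oligodendrocyte precursor and hindbrain markers that include no member. Pairs with the hindbrain score, and all pairs of Cbln1 or Cbln3, could be taken only within the 7 libraries low in hindbrain markers, because their values fall into separate sets (15 pairs). The other 20 were taken over 12 libraries, so none of the 35 bears on the step of Cbln1 and Cbln3 between the 5 and the 7. Of the 35 pairs, 0 passed after Benjamini-Hochberg adjustment over the 35, and 4 had an unadjusted permutation p under 0.05. Cbln2 followed the cortex score most closely (Pearson r = 0.81, permutation p = 0.00152, adjusted p = 0.0532; Spearman rho = 0.78, p = 0.00439, adjusted p = 0.154; 12 libraries). Without the 2 libraries farthest from the median score r was 0.67 (p = 0.0336, permutation), and within the 7 libraries low in hindbrain markers it was 0.40 (exact permutation p = 0.377). C1ql3 had r = 0.75 with the cortex score (permutation p = 0.00523, adjusted p = 0.0915; rho = 0.59, p = 0.0462) and 0.25 within the 7 (exact permutation p = 0.586). Its r with the dentate score was 0.64 (permutation p = 0.0273, adjusted p = 0.239; rho = 0.70, p = 0.0145) and 0.48 within the 7 (exact permutation p = 0.261). C1ql2 had r = -0.73 with the thalamus score (permutation p = 0.00835, adjusted p = 0.0974; rho = -0.57, p = 0.059), which was -0.17 without PBS male 2 and collagen domain female 3 and so rests on those libraries. Within the 7 libraries low in hindbrain markers, which include both, it was -0.84 (exact permutation p = 0.0214, not adjusted). The cortex markers summed to 820 to 1074 CPM in the 5 libraries with hindbrain markers and to 967 to 1132 CPM in the other 7. The dentate markers summed to 193 to 209 CPM in the 5 and to 217 to 248 CPM in the 7, without overlap, though their mean log2 scores overlapped. The part of these differences in the pooled values was not tested.

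For each member the genes of most similar pattern were taken from all 19145 tested, as a description without a test, since the libraries share their tissue content. Over all 12 libraries Cbln3 was closest to Cnpy1, Fat2 (a granule cell cadherin) and Gabra6, with mean absolute differences of centred log2 CPM of 0.51, 0.59 and 0.71. Cbln1 was closest to Ptpn22 at 0.15, A930017K11Rik at 0.18 and Kcng4, a potassium channel subunit, at 0.19. Within the 7 libraries low in hindbrain markers the highest Pearson r for Cbln3 was with Gm7030 (0.98), Cnpy1 (0.98) and Gm8094 (0.96). For Cbln1 it was with Zfp976 (0.97), Map10 (0.97) and Gsap (0.96). Gm7030, Cnpy1 and Gm8094 stood at only 0.0695 to 0.641 CPM there and Cbln3 at 7 to 71 reads, while Cbln1 spanned only 17.5 to 21.5 CPM. Each r given here is the highest among 19145 genes, so a high value can arise by selection alone, above all over 7 libraries. The genes of highest Pearson r with C1ql2 over the 12 libraries were Gata3 (r = 0.93), Aph1b (0.92) and Tal1 (0.91), of which Gata3 and Tal1 encode transcription factors of midbrain and hindbrain inhibitory neurons. Gata3 stood at 0.928 to 1.57 CPM in the 5 libraries with hindbrain markers, PBS male 1 and PBS female 1, and at 0.235 to 0.417 CPM in the other 5 libraries. For C1ql1 they were Taf3 (0.96), Keap1 (0.95) and Cdr1 (0.94), for C1ql3 Rab14 (0.93), Fam19a1 (0.92) and Nop16 (0.91), for Cbln2 Rnf207 (0.96), Col24a1 (0.95) and Igf1 (0.93), and for Cbln4 Gm30340 (0.90), Mir99ahg (0.87) and Rngtt (0.87).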

How the data were processed

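Poly(A) RNA of 12 brain samples was sequenced as pairs of 75-base reads with a TruSeq version 2 kit, per the labels' protocols. The values the authors deposited are whole-number read counts for each Ensembl gene, without scaling. Per the submitters' processing notes, STAR, DESeq2 and GRCm39 were used, in roles and versions not listed. The counting tool, strand setting and annotation are not given in the sources used here. Columns were assigned to samples by library name, and 42462 of 43629 IDs took symbols from GENCODE M21.

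Under R 4.3.3, edgeR 4.0.16 served for the main tests (filterByExpr on the 4 groups, 19145 genes kept, all 7 members among them, TMM scaling, robust quasi-likelihood F-test, Benjamini-Hochberg over all genes, threshold 0.05). Treatment in both sexes and sex came from an additive fit to all 12 libraries, and treatment within a sex and the interaction from a fit of the 4 groups. Log2 CPM used a prior count of 2. DESeq2 1.42.0 and limma-voom (limma 3.58.1) were alternatives, as were RLE scaling, testing every gene with a read, requiring 1 CPM in 6 libraries, a looser threshold (0.1), the replicate number as a block, removal of single libraries or of those against their labels, and a hindbrain covariate. Scripts were tested on simulated data. Correlations used two-sided permutation tests of 100000 resamples, or exact ones over 7 libraries. Coding sequences were aligned with mafft 7.526. Named genes are all members, 12 of 15 partners and relatives (the others are not reported here), and the 3 genes most like each member. Members, lists and alternatives were chosen with earlier results of these data known. In the 12 pairs of libraries that share a group label, chi-square over its degrees of freedom was 11.6 to 100.0, above sampling noise. Pairs across groups were not compared. Precision is limited by the number of libraries and, for Cbln3, by as few as 7 reads.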

Additional observations from a re-analysis of the deposited data

Results flagged for a closer look

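C1ql2 in PBS male 2, at 4.54 CPM, lay far below the other 5 libraries labelled PBS, which held 7.41 to 8.64 CPM. The gap to the nearest of them exceeded Dixon's critical value of 0.625 for 6 libraries on the log2 scale. Of 14 groups of 6 libraries examined, 1 was marked in this way, and chance marks about 5% of such groups. PBS male 2 went against neither of its labels and had the highest thalamus score of the 12 libraries, at 4.43 in mean log2 CPM. It held Gata3 at 0.235 CPM, the lowest of the 12. Gata3 was picked above for its likeness to C1ql2 over these same libraries, so its low level here is not a separate trait. The part of the sampled tissue in the low C1ql2 level was not tested. Among libraries labelled collagen domain, 3 lay between 4.73 and 5.84 CPM, so the level itself was not confined to 1 library.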

How the results depend on the processing

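No member and no binding partner passed under any alternative run for any of the 5 comparisons. Other counts of genes moved. Without the 4 libraries against their treatment label edgeR called 2 genes for treatment in both sexes and 1 between the sexes, and without the 5 against either label 2 and 8. Counts within a sex are not given for these fits, in which 1 collagen domain female library is left, assumed to vary like the others. DESeq2 called 3 genes within males, 1 for the interaction and 8 between the sexes. Leaving out 1 library gave 0 to 1 within males and 0 to 5 between the sexes. Log2 fold changes of opposite sign to the main value were 0.086 (without the 4) and 0.14 (without the 5) for C1ql2, 0.27 (hindbrain covariate), 0.46 and 0.73 for Cbln1, -0.012 (covariate), -0.056 and -0.12 for Cbln2, and 0.67 and 1.08 for Cbln3. With 1 library left out, Cbln1 ranged from -0.73 to 0.42 and Cbln3 from -2.32 to 1.42, while the other 5 members kept their sign. The cause of these changes was not tested. Same-numbered libraries did not pair, with correlations of their deviations from the group means from -0.38 to 0.57 and 7 of 18 over 0.1. With a replicate block Cbln3 stood at -2.49 and 0 genes were called for any comparison. Spearman correlations, or leaving out 2 libraries, also left 0 of 35 region pairs passing.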

Other observations

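In the 5 libraries with hindbrain markers the 2 granule cell cerebellins lay in a narrow range of ratios, a comparison chosen after the values were seen. The CPM of Cbln3 was 1.85 times that of Cbln1 in PBS female 2, 1.498 times in PBS female 3, 1.89 times in PBS male 3, 1.82 times in collagen domain female 2 and 1.99 times in collagen domain male 2. The CPM of Cbln1 above its median in the other 7 libraries (18.7 CPM), divided by the CPM of Cbln3, lay between 0.427 and 0.474 in these 5. Cbln3 over Gabra6, with no level subtracted, varied more, from 1.27 in PBS male 3 to 1.85 in collagen domain female 2. Cnpy1, another gene close to Cbln3, stood at 40.5, 21.2, 47.1, 45.4 and 59.5 CPM in the order of libraries given first. A narrow range of ratios to Cbln3 is therefore not particular to Cbln1.

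C1ql1 did not follow the granule cell gene Gabra6 within these 5 libraries, also noticed after the values were seen. From the highest to the lowest its level was 10.3 CPM in collagen domain female 2, 8.30 in PBS female 3, 8.08 in collagen domain male 2, 6.52 in PBS female 2 and 6.04 in PBS male 3. Slc6a5, the glycine transporter gene of hindbrain neurons, stood at 57.1, 44.2, 53.7, 31.8 and 27.4 CPM in the same order. Gabra6 stood at 106, 58.4, 149, 108 and 144 CPM. Other granule cell markers differed among themselves. Of these 5 libraries Reln was lowest in PBS male 3, at 67.4 CPM, as C1ql1 was. Fat2 was lowest in PBS female 3, at 28.9 CPM, as Gabra6 was. A list of 8 Hox genes, which mark brainstem and spinal position, summed to 8.36, 6.68, 8.67, 3.91 and 6.49 CPM. PBS male 3, lowest for C1ql1 and Slc6a5, was not lowest for this list. PBS male 1, outside the 5, held Slc6a5 at 13.7 CPM but C1ql1 at 6.21 CPM, inside the range of the libraries low in hindbrain markers. A link of C1ql1 with brainstem tissue was not tested. With 5 libraries no correlation is given.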
